A study of Mus musculus with 16 samples.

Results

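The transcripts described here are those of 10 genes that mark T cells and natural killer (NK) cells, read in RNA of pulmonary endothelial cells (ECs). They were chosen by gene name, as 4 T cell genes (Cd3d, Cd3e, Cd4 and Cd8a) and 6 NK and cytotoxic genes (Nkg7, Gzma, Gzmb, Prf1, Klrb1c and Ncr1), out of 54532 genes in each deposited table. ECs were isolated from digested mouse lung with magnetic beads, first by removing cells with CD45, the surface protein of leukocytes, and then by capturing cells with CD31. In the first experiment C57/BL6J males of wild-type (WT) genotype, aged 8 weeks, received saline (n = 4) or 10 mg/kg lipopolysaccharide (LPS, n = 6) into the trachea. In the second experiment all mice received 2 mg/kg LPS by the same route, with 3 libraries from Fgfr1 loxP/loxP and 3 from Fgfr1 iΔEC/iΔEC animals, and no saline arm of these genotypes was analysed here. Lungs were taken after 24 h in every group. The iΔEC/iΔEC mice carry VE-cadherin-CreERT2, an EC-driven recombinase switched on by tamoxifen, and the loxP/loxP mice were littermates, so the deletion was aimed at ECs and not at lymphocytes. Both genotypes received tamoxifen. The paper describes the iΔEC/iΔEC mice as adult, and an age in weeks is not stated separately for these genotypes.

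T cells recognise antigen through a receptor whose chains are held at the surface by the CD3 proteins, and CD4 or CD8 binds the presenting molecule beside it. NK cells use germline-encoded receptors instead, and both cell types can kill a target by releasing perforin, which opens membranes, and granzymes, which are proteases. The lung holds resident and circulating lymphocytes of both kinds, many of them within its capillaries. None of the 10 genes is a usual marker of ECs, and lymphocytes carry CD45, so the first bead step was meant to remove these cells.

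All 10 genes had at least 1 read in each of the 16 libraries, so the isolated fraction was not free of their transcripts. Levels are given in FPKM, fragments on a gene per kilobase of its length and per unit of library size, which the authors deposited. Each value could be turned back into a whole number of reads, and the members had between 2 and 503 reads in a library, against 13478726 to 19043015 reads on all genes. The 2 reads were those of Cd8a in LPS 5, and Cd3d had 3 reads in saline 3. For comparison, Cdh5, the gene of VE-cadherin, stood at 710 ± 56.0 FPKM (SD, n = 4) and Pecam1, the gene of CD31, at 400 ± 81.5 FPKM in saline, while Gzma, the most abundant member, stood at 14.2 ± 13.8 FPKM. Among the libraries of the first experiment, saline 3 stood apart with few T cell transcripts and saline 1 with many NK and cytotoxic transcripts, and results are given with and without them where they matter. In bulk samples, fewer cells of a type and less RNA per cell cannot be told apart.

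The defining genes of both cell types bore out the name in part. The T cell receptor chain genes Trac, Trbc1 and Trbc2 were read in each library. Of the NK transcription factors, Eomes did not exceed 0.453 FPKM in any library and Tbx21, which T cells share, lay between 0 and 1.44 FPKM. The NK genes were therefore represented mainly by granule genes and receptors, which cytotoxic T cells also express in part.

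The 4 granule genes are shown with the sequence before their start, since they carry most of the signal described below and share a motif there. Gzma encodes granzyme A, Gzmb granzyme B, Prf1 perforin, and Nkg7 a membrane protein of the granules. Sequences are from RefSeq on GRCm38.p6, at chr13:113100982-113101231 on the minus strand for Gzma, chr14:56262335-56262584 on the minus strand for Gzmb, chr10:61297586-61297832 on the plus strand for Prf1 and chr7:43436888-43437072 on the plus strand for Nkg7. Capitals mark matches on either strand to TGTGGT, the core bound by RUNX factors, to TGANTCA of AP-1, to TGACGT of CREB and ATF factors, and to GGAAGT of ETS factors.
Gzma promoter: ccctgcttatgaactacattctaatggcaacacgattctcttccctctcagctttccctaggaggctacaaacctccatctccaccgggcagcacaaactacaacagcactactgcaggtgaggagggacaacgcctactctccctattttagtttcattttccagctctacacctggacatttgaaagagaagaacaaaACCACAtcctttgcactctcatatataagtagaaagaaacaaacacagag
Gzmb promoter: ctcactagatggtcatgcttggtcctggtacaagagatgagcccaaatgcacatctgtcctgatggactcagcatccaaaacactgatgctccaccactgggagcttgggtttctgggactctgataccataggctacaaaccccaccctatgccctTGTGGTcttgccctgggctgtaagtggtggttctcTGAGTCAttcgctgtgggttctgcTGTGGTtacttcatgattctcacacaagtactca
Prf1 promoter: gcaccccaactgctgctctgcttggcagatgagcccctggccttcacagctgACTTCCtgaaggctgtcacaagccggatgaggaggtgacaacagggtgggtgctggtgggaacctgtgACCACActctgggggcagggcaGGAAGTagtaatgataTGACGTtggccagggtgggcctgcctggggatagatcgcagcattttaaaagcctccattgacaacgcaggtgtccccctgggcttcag
Nkg7 promoter: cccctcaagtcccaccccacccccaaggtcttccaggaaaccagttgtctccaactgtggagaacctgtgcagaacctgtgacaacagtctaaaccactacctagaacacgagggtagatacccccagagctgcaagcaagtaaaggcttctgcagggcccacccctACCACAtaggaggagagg
TGTGGT occurred in the promoters of all 4, once in Gzma, Prf1 and Nkg7 and in 2 places in Gzmb. Of the 9 members with a RefSeq promoter entry, 6 held it within the 250 bases before the RefSeq start (Nkg7, Gzma, Gzmb, Prf1, Klrb1c and Ncr1), against 14.0% of 32851 such windows. Cd3d, Cd3e and Cd8a did not hold these letters in this window, and Cd4 had no entry. Gzmb also held TGAGTCA, of a motif found in 6.75% of windows, and Prf1 held TGACGT (6.47% of windows) and GGAAGT in 2 places (19.7% of windows). GGTGTGA of T-box factors (3.33% of windows) was searched as well and matched Nkg7, outside the bases shown. None of the matches shown overlap each other, and they describe the letters only.

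The first comparison asked whether the T and NK transcripts of the EC fraction differed after 24 h of LPS. None of the 10 members was called. Of them, 8 had a mean of at least 0.5 FPKM and were tested with limma on log2(FPKM + 1), and a gene was called where its adjusted p was 0.05 or less and its log2 fold change 1 or more in either direction. Among all 14893 genes tested, 11.9% were called higher and 6.79% lower in LPS. The count of 0 held in each alternative run, with limma-voom on read numbers among them. Cd3e and Cd8a entered only the run without a limit on low values. At an unadjusted p under 0.05 there was 1 member, Nkg7, against 59.6% of all genes. No member had groups that did not overlap, against 39.4% of all genes. The mean FPKM was lower in LPS for 10 of 10 members, while the median log2 fold change of the 8 tested was -0.15, beside 0.01 for all genes. Without saline 1 the mean was lower in LPS for 6 of 10 members (not for Cd3d, Gzma, Gzmb and Klrb1c). The median was then 0.01, beside 0.02 for all genes. Without saline 3 the median was -0.28, and without saline 1 and saline 3 it was -0.19, beside 0.04 for all genes. The median thus depended on both libraries. On the scale set by the endothelial marker genes this median was 0.18, beside 0.57 for all genes. Fold changes of genes near 1 FPKM are understated on the log2(FPKM + 1) scale. Cd3e, Cd8a and Klrb1c had saline means below 1 FPKM, so on this scale they could not fall by the fold limit. Cd4, Ncr1 and Prf1 had saline means of 1.13, 1.10 and 1.35 FPKM and could do so only if almost absent in LPS. On this scale the lack of a lower call therefore decides little for them.

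**Figure D1:**
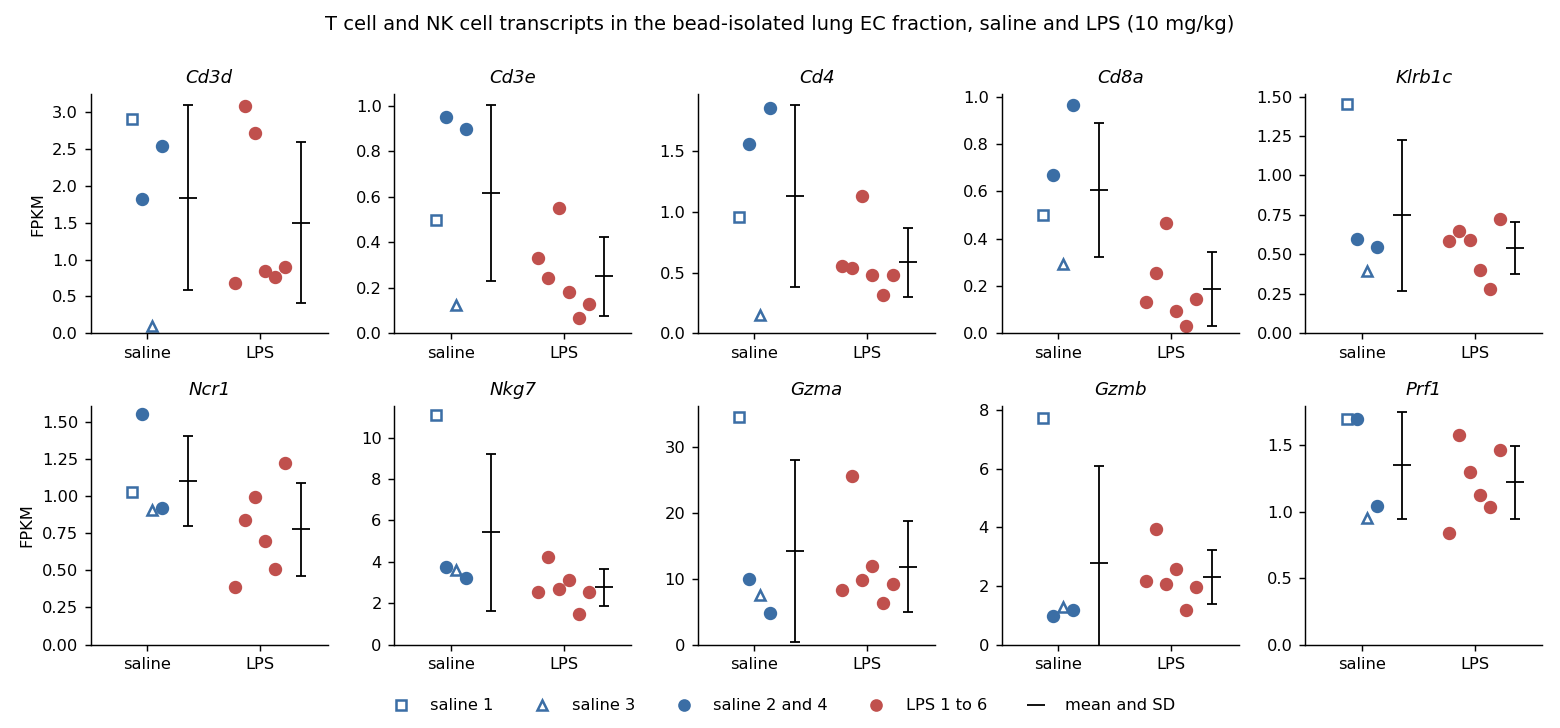
FPKM of the 10 members in each saline and LPS library, 1 panel per gene with its own axis from 0. Points are libraries, horizontal bars with whiskers are the mean and SD (cut at 0 for Gzmb), the open square is saline 1 and the open triangle is saline 3. Saline 3 lies lowest among the saline libraries for the 4 T cell genes, and saline 1 lies highest for Klrb1c, Nkg7, Gzma and Gzmb.

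Among the saline libraries, saline 3 had the lowest level of each T cell member. Cd3d, a chain of the CD3 complex, had 2.92, 1.82, 0.0926 and 2.55 FPKM in saline 1 to 4. In LPS 1 to 6 it had 0.688, 3.09, 2.72, 0.845, 0.767 and 0.897 FPKM. The LPS libraries thus fell into 2 with a level like that of saline 1, 2 and 4 and 4 that lay below them, and saline 3 lay below all of the others. The log2 fold change was -0.14 (SE 0.39, limma adjusted p = 0.783), and without saline 3 it was -0.55 (limma adjusted p = 0.167).

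Cd4, the co-receptor of helper T cells, had 0.956, 1.56, 0.153 and 1.85 FPKM in saline 1 to 4. In LPS it had 0.552, 0.535, 1.13, 0.479, 0.318 and 0.482 FPKM. Saline 1, 2 and 4 lay above 5 of the 6 LPS libraries, and LPS 3 lay between them. The log2 fold change was -0.36 (SE 0.24, limma adjusted p = 0.216). Without saline 3 it was -0.64 (SE 0.18, limma adjusted p = 0.0149), below the adjusted p limit and short of the fold limit. Without saline 4 it was -0.20 (limma adjusted p = 0.528), and the value thus moved both ways with the saline library left out.

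Cd3e and Cd8a had means of 0.398 and 0.355 FPKM over the 10 libraries and were not in the fit. Cd3e, another CD3 chain, had 0.50, 0.953, 0.124 and 0.897 FPKM in saline and 0.333, 0.242, 0.552, 0.181, 0.0683 and 0.129 FPKM in LPS. Its groups overlapped, and the two-sided exact permutation test on log2(FPKM + 1) gave p = 0.105. Cd8a, the co-receptor of cytotoxic T cells, had 0.499, 0.671, 0.293 and 0.964 FPKM in saline and 0.134, 0.254, 0.468, 0.0937, 0.0306 and 0.144 FPKM in LPS. Saline 3 lay within the LPS range and the other saline libraries above it. The exact permutation p was 0.0190 (4 against 6 libraries, where 0.00952 is the smallest possible), and it was not adjusted for the 10 members. In the limma fit without a limit on low values, the log2 fold change was -0.43 (SE 0.14, limma adjusted p = 0.0477) for Cd8a and -0.35 (SE 0.17, limma adjusted p = 0.199) for Cd3e. Their saline means were 0.607 FPKM for Cd8a and 0.618 FPKM for Cd3e. From such levels neither could fall by the fold limit on log2(FPKM + 1), so the lack of a call decides nothing for them. Without saline 3 the groups of Cd8a did not overlap, which held for 1 of 10 members against 44.4% of all genes, and the calls among all genes were 11.6% higher and 7.33% lower. Cd3e shares its locus with the annotated genes Gm48719 and Gm48720, the first on the opposite strand and the second on the same one. Reads on the first could not be told apart without knowledge of the strand setting, and strand does not separate those on the second.

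The NK receptor genes showed smaller differences between libraries. Ncr1 encodes NKp46, an activating receptor of NK cells, and had 1.03, 1.56, 0.909 and 0.924 FPKM in saline and 0.388, 0.841, 0.998, 0.701, 0.507 and 1.23 FPKM in LPS. Klrb1c encodes NK1.1 and had 1.46, 0.595, 0.397 and 0.549 FPKM in saline and 0.587, 0.645, 0.593, 0.403, 0.282 and 0.727 FPKM in LPS. For both genes the groups overlapped, and saline 3 was not set apart as it was for Cd3d. The log2 fold change was -0.25 (SE 0.16, limma adjusted p = 0.198) for Ncr1, and without saline 2 it was -0.16 (limma adjusted p = 0.472). With all libraries it was -0.16 (SE 0.17, limma adjusted p = 0.453) for Klrb1c, whose annotation overlaps Gm44511 and whose Klrb1 relatives can share reads with it.

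The granule genes were highest in saline 1. Gzma had 34.6, 10.0, 7.46 and 4.80 FPKM in saline 1 to 4 and 8.32, 25.6, 9.82, 11.9, 6.37 and 9.13 FPKM in LPS 1 to 6. Gzmb had 7.74, 0.976, 1.29 and 1.17 FPKM in saline and 2.16, 3.95, 2.06, 2.57, 1.16 and 1.97 FPKM in LPS. Saline 1 lay above each of the other 9 libraries for both, and LPS 2 was the next. With all libraries the log2 fold change was -0.01 (SE 0.47, limma adjusted p = 0.990) for Gzma and 0.08 (SE 0.39, limma adjusted p = 0.874) for Gzmb. Without saline 1 the log2 fold changes were 0.53 for Gzma and 0.59 for Gzmb (limma adjusted p = 0.0378 for Gzmb), again short of the fold limit. The direction of Gzma thus turned without saline 1. Granzymes form a family of similar genes, and the handling of reads that align to several of them is not given in the sources used here.

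Nkg7 had 11.1, 3.76, 3.61 and 3.22 FPKM in saline and 2.56, 4.25, 2.70, 3.11, 1.46 and 2.53 FPKM in LPS. Here LPS 2 alone among the LPS libraries lay within the saline range, and the other 5 lay below it. The log2 fold change was -0.65 (SE 0.29, limma adjusted p = 0.0803), and the exact permutation p was 0.0571. Leaving out saline 1 moved Nkg7 to -0.30 (limma adjusted p = 0.212), and scaling to total reads moved it to -0.81 (limma adjusted p = 0.0225), short of the fold limit. On the scale of the endothelial genes it was -0.09 (limma adjusted p = 0.825). Prf1 had 1.70, 1.70, 0.953 and 1.04 FPKM in saline and 0.841, 1.57, 1.30, 1.12, 1.04 and 1.46 FPKM in LPS, with a log2 fold change of -0.07 (SE 0.15, limma adjusted p = 0.693). Its groups covered nearly the same range.

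T cell and NK members varied in different libraries. Summed over the 4 T cell genes, saline 1 to 4 had 4.87, 5.00, 0.661 and 6.26 FPKM. Summed over the 6 NK and cytotoxic genes, they had 57.6, 18.6, 14.6 and 11.7 FPKM. Saline 3 therefore had few T cell transcripts and an NK sum above that of saline 4, and the NK sum was 22.1 times the T sum there, against 1.87 times in saline 4. The T sum was 1.18 to 4.87 FPKM in LPS (median 1.68), and the NK sum 10.8 to 36.9 FPKM (median 17.3). Across the 10 libraries, Pearson's r of log2(FPKM + 1) had a median of 0.80 over the 6 pairs of T cell genes (0.60 to 0.96) and 0.69 over the 15 pairs of NK and cytotoxic genes (-0.04 to 0.91). Over the 24 pairs of a T cell gene with an NK or cytotoxic gene the median was 0.34 (-0.10 to 0.64). These values share libraries and groups and are a description only.

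Ptprc, the gene of CD45, moved apart from the members. It had 11.0, 7.44, 3.53 and 5.93 FPKM in saline and 52.7, 28.3, 43.4, 28.2, 32.8 and 22.1 FPKM in LPS. The groups did not overlap, and the log2 fold change was 2.19 (SE 0.28, limma adjusted p = 0.000112). The T sum divided by Ptprc was 0.187 to 1.06 in saline and 0.0324 to 0.146 in LPS. The NK sum divided by Ptprc was 1.98 to 5.24 in saline and 0.282 to 1.30 in LPS. Both ratios were lower in each LPS library than in each saline library, saline 3 included, with Ptprc in the denominator as the part that rose.

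**Figure D2:**
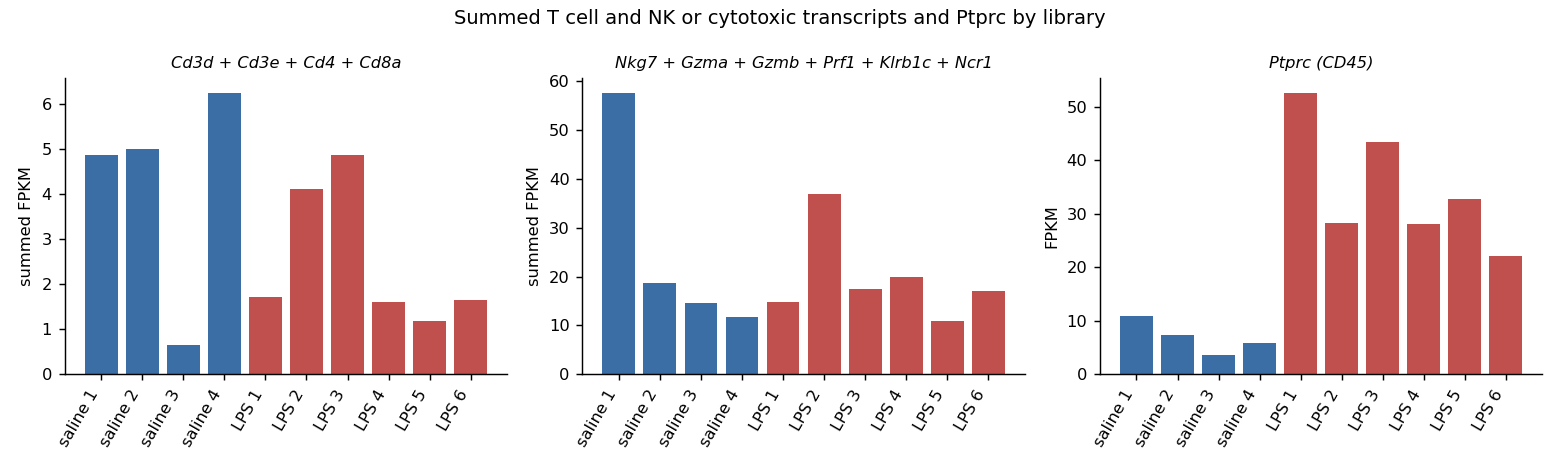
Bars give, for each saline (blue) and LPS (red) library, the summed FPKM of the 4 T cell genes, the summed FPKM of the 6 NK and cytotoxic genes, and the FPKM of Ptprc. The T sum is smallest in saline 3 (0.661), the NK sum largest in saline 1 (57.6), and Ptprc lies at 3.53 to 11.0 in saline and 22.1 to 52.7 in LPS.

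Most other genes of the T cell receptor and its signaling were not called. Of 18 genes on the list, 14 were tested, and 1 was called higher and 1 lower, with a median log2 fold change of -0.55. The gene called lower was Cd2, an adhesion receptor of T and NK cells, with 6.73 ± 2.91 FPKM (SD, n = 4) in saline and 2.36 ± 0.946 FPKM (n = 6) in LPS (log2 fold change -1.17, limma adjusted p = 0.00307). The gene called higher was Lcp2, with 1.87 ± 0.528 and 56.5 ± 20.6 FPKM, which encodes the adaptor SLP-76 and is also used by myeloid cells and platelets. Trbc1 and Trbc2, the constant segments of the receptor's beta chain, had 1.05 and 1.62 FPKM in saline 3, against 6.85 to 12.8 FPKM and 13.2 to 18.9 FPKM in the other saline libraries. Without saline 3, 5 genes of the list were called lower, among them Cd2, Trac, Trbc1 and Trbc2, and the median was -0.76. This count depended on that library, and with limma-voom on all libraries 2 were called lower. On the scale of the endothelial genes no gene of the list was called lower, and its median was -0.15 where all genes had 0.57. That scale thus moved all genes by more than 0.1, and on it the members and the lists below lay against 0.57 and not against 0.

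The 4 T cell transcription factor genes that passed the limit of 0.5 FPKM, out of 8, were all called lower. Gata3, the factor of type 2 helper cells, fell from 6.82 ± 2.92 to 1.39 ± 0.350 FPKM (log2 fold change -1.61, limma adjusted p = 0.000548). Its highest level, 8.54 FPKM, was in saline 3, where each T cell member was at its lowest among the saline libraries. Tcf7, a factor of naive and memory T cells, fell from 20.2 ± 7.83 to 8.78 ± 2.49 FPKM (-1.09, limma adjusted p = 0.00457). Ikzf3 fell from 3.19 ± 1.95 to 0.803 ± 0.627 FPKM, and Ets1 from 70.1 ± 12.8 to 30.9 ± 6.22 FPKM. Ets1 is also an EC factor, and its level far exceeded that of any T cell member. Of the 4, 3 were called lower without saline 1, and 1 on the scale of the endothelial genes.

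On the list of NK cell receptors and factors, the genes called were ones that myeloid cells also express. Of 20 genes, 10 were tested, 4 were called higher and 0 lower, and the median was -0.25. This median turned to 0.07 without saline 1 (9 tested) and to 1.5 without saline 1 and saline 3 (8 tested), with 4 genes called higher and 0 lower in each, while limma-voom called 2 genes lower. The 4 were Fcer1g, Tyrobp, S1pr5 and Cd244a. Fcer1g and Tyrobp encode signaling adaptors, and Tyrobp had 57.3 ± 61.4 FPKM in saline and 852 ± 270 FPKM in LPS (log2 fold change 4.30, limma adjusted p = 5.19e-05). S1pr5, a receptor for NK cell egress, had 1.29 ± 0.328 and 17.5 ± 4.33 FPKM (2.99, limma adjusted p = 1.13e-06). Klrd1, the CD94 chain, was tested and not called, with 2.24 ± 0.990 FPKM in saline and 0.978 ± 0.328 FPKM in LPS (-0.68, limma adjusted p = 0.0155). Klrc1, Klra8 and Klra9 had LPS means of 0.344, 0.442 and 0.421 FPKM and passed the limit through their saline levels, so no direction is read from them, and 10 genes of the list were not tested.

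The cytotoxic granule and effector list held genes called higher. Of 14 genes, 9 were tested, 5 were called higher and 0 lower, with a median of 1.25. The 5 were Ccl5, Stx11, Stxbp2, Srgn and Unc13d. Ccl5, a chemokine of activated T and NK cells and of other cells, had 11.5 ± 12.3 FPKM in saline and 63.9 ± 43.0 FPKM in LPS (log2 fold change 2.61, limma adjusted p = 0.00157). Stx11, Stxbp2 and Unc13d encode parts of the machinery of granule release, and Srgn the granule proteoglycan, all of which neutrophils and other leukocytes use as well. Of the genes restricted more to lymphocytes, Gzmm had 1.00 ± 0.270 FPKM in saline and 0.492 ± 0.132 FPKM in LPS, passed the limit through its saline level and was not called. Ctsw, the gene of cathepsin W, had 3.08 ± 1.21 and 1.71 ± 0.639 FPKM (-0.57, limma adjusted p = 0.0512), and without saline 3 its log2 fold change was -0.78 (limma adjusted p = 0.0110, not called). Gzmk, Fasl, Ifng and Xcl1 were below the limit for testing. Without saline 1 the count of this list was 5 higher and 1 lower.

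Homing, activation and cytokine genes held calls in both directions. Of 10 homing and residence genes, 7 were tested, and Itga1 was called lower. Without saline 3 the count was 2 lower, and the median of the list turned from 0.11 to -0.32. Itga1, an integrin also of ECs, fell from 46.3 ± 6.63 to 14.0 ± 4.33 FPKM. Of 10 activation and checkpoint genes, 6 were tested, and Havcr2 and Tnfrsf9 were called higher. Tnfrsf9 had 0.175 FPKM in saline and 3.22 FPKM in LPS on average and passed the limit through its LPS level, so its call is not read further. Havcr2 encodes TIM-3, which macrophages carry too, and rose from 1.36 ± 1.46 to 20.2 ± 6.16 FPKM. Without saline 1 only 4 of the activation genes were tested, 2 were called higher and 1 lower, and the median of the list turned from -0.59 to 0.69. With limma-voom and all libraries 2 were called higher and 2 lower. Of 12 genes of cytokine input, 8 were tested, 4 were called higher (Il18rap, Il12a, Il21r and Il2rg) and 1 lower (Il15). Il15, the cytokine that maintains NK cells, had 7.02, 3.64, 3.29 and 3.57 FPKM in saline and 1.03 to 1.94 FPKM in LPS (median 1.38), without overlap (log2 fold change -1.11, limma adjusted p = 0.000510). Without saline 1 Il15 was no longer among the calls of the list, which then held 4 higher and 0 lower. Without saline 3 Il21r, at a log2 fold change of 0.85, was not called, and the cytokine list held 3 higher and 1 lower. On total reads its count was also 3 higher and 1 lower. On the scale of the endothelial genes the cytokine list held 5 higher and 0 lower and the homing list 0 lower, so that neither Il15 nor Itga1 was called.

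Markers of other cells moved with treatment as well. Of 8 B cell genes, all tested, 7 were called lower and 0 higher, with a median log2 fold change of -1.53. Their summed level was 177, 252, 37.2 and 211 FPKM in saline 1 to 4, with Cd79a the most abundant, and 26.5 to 84.0 FPKM in LPS. Saline 3 was thus low in B cell as well as in T cell genes. Without saline 3 the count was 8, without saline 1 it was 4, and on the scale of the endothelial genes it was 2. All 6 leukocyte genes, 5 of 8 neutrophil genes and 7 of 8 macrophage and monocyte genes were called higher. The neutrophil genes summed to 1412, 77.4, 319 and 83.0 FPKM in saline, with S100a9 the most abundant, and to 1296 to 6676 FPKM in LPS. The library with the most neutrophil transcripts among the saline ones was saline 1 and among the LPS ones LPS 2, which were also those with the highest Gzma. The macrophage and monocyte genes summed to 1118, 474, 736 and 376 FPKM in saline, with Lyz2 the most abundant, and to 1865 to 4009 FPKM in LPS. Of 10 endothelial genes 0 were called higher and 3 lower (Kdr, Tek and Tie1), of 8 epithelial genes 2 of 7 tested lower, and of 10 fibroblast and mural genes 1 lower. No dendritic or mast cell gene was called, where 2 of 6 dendritic and 3 of 6 mast cell genes were tested. Without saline 1 the fibroblast and mural count turned to 1 higher and 0 lower, the epithelial count was 1 lower and the dendritic count 1 lower, and 7 of 8 neutrophil genes were called higher. Without saline 3 the epithelial count was also 1 lower. On total reads 1 dendritic gene was called lower, and with limma-voom 1 dendritic and 1 mast cell gene. On the scale of the endothelial genes the epithelial count was 1 lower, the fibroblast and mural count 1 higher and 0 lower, and that of the endothelial genes themselves 0. No marker gene of these lists was at 0 in all libraries. The part of these other cells, and of the 2 libraries that stood apart, in the members' values was not tested.

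**Figure D3:**
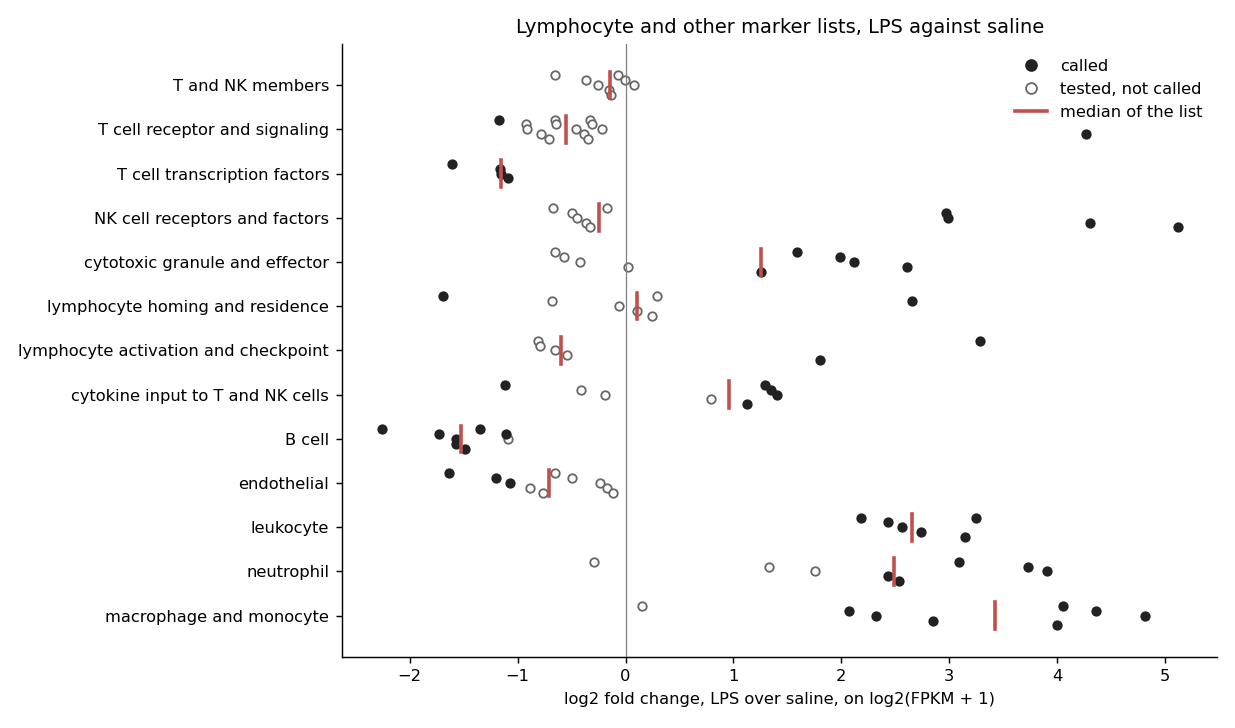
Each point is a tested gene placed by its log2 fold change, LPS over saline, on log2(FPKM + 1), in the row of its list. Filled points were called, open points were tested and not called, and red lines are list medians. The 8 tested members lie between -0.65 and 0.08 with no filled point, the B cell genes lie below 0 (median -1.53) and the macrophage and monocyte genes above it (median 3.42).

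The genes whose pattern over the 10 libraries was most like that of the T cell members included B lineage genes. By Pearson's r with the mean log2(FPKM + 1) of the 4 T cell genes, they were Gm32220 (0.968), Gm2682 (0.963), Spib (0.958) and a pair of variable segments of the kappa light chain (0.965 and 0.952). Spib, a factor of B cells and plasmacytoid dendritic cells, had 10.4 FPKM in saline 1 and 2.05 FPKM in saline 3. For the NK and cytotoxic members they were Myom1 (0.924), Rnf186 (0.924), mt-Tw (0.919), Trgj4 (0.913) and Arhgap8 (0.908). Their means in saline were below 2 FPKM, and saline 1 had the highest level, as with 6.77 FPKM for mt-Tw and 3.72 FPKM for Trgj4, a joining segment of the gamma T cell receptor. Trgj4 averaged 0.929 ± 1.86 FPKM in saline and 0.337 ± 0.825 FPKM in LPS. Each SD exceeded its mean, so the r of Trgj4 rested on few libraries.

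The second comparison asked whether the transcripts differed between iΔEC/iΔEC and loxP/loxP mice under 2 mg/kg LPS. Fgfr1 itself had 2.90, 2.91 and 2.60 FPKM in loxP/loxP 1 to 3 and 0.682, 1.41 and 1.15 FPKM in iΔEC/iΔEC 1 to 3, lower in each library labelled iΔEC/iΔEC. All 10 members were tested and none was called, and among all 14945 genes 0% were called higher and 0% lower. Fgfr1, at a log2 fold change of -0.88, was not called either (limma adjusted p = 0.962). With limma, 661 genes had an unadjusted p under 0.05, or 4.42%, and among the members 3 did, namely Gzma, Cd3d and Prf1. With limma-voom the number of genes called was likewise 0.

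The mean FPKM of each of the 10 members was lower in iΔEC/iΔEC mice. Gzma had 29.4, 24.0 and 24.2 FPKM in loxP/loxP and 15.0, 16.4 and 19.0 FPKM in iΔEC/iΔEC mice. Each iΔEC/iΔEC library lay below each loxP/loxP library, with a log2 fold change of -0.59 (SE 0.13, limma adjusted p = 0.962). The unadjusted limma value was 0.00329. The exact permutation test, which ignored the replicate numbers, gave p = 0.1, the smallest that 3 libraries against 3 can give in it. Cd3d had 5.45, 4.59 and 3.83 FPKM and 3.51, 3.57 and 3.35 FPKM (log2 fold change -0.32, SE 0.13). Prf1 had 3.80, 3.18 and 2.80 FPKM and 2.14, 2.76 and 2.28 FPKM (-0.33, SE 0.13). For these 3 members the groups did not overlap, against 10.1% of all genes in either direction and 4.09% with the lower group in iΔEC/iΔEC mice.

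For the other 7 members the groups overlapped. Nkg7 had 17.1, 10.5 and 9.54 FPKM in loxP/loxP and 8.10, 9.55 and 8.13 FPKM in iΔEC/iΔEC mice. Gzmb had 11.4, 7.29 and 6.65 FPKM and 4.02, 7.02 and 6.11 FPKM. In both genes loxP/loxP 1 was the highest library, and for Gzmb iΔEC/iΔEC 1 was the lowest. The log2 fold change of Gzmb was -0.49 (SE 0.25), and -0.27 without loxP/loxP 1 and -0.29 without iΔEC/iΔEC 1. Klrb1c had 1.43, 1.05 and 0.931 FPKM and 0.881, 0.936 and 0.622 FPKM, and Ncr1 had 1.87, 2.09 and 1.5 FPKM and 1.77, 1.34 and 1.71 FPKM. Cd4 had 3.39, 1.92 and 3.05 FPKM and 2.08, 2.55 and 1.64 FPKM. Cd3e differed by -0.23 on the log2 scale (1.37 ± 0.310 and 1.02 ± 0.172 FPKM), and Cd8a by -0.02 (2.42 ± 0.740 and 2.38 ± 0.756 FPKM). Within same-numbered pairs, 7 of the 10 members were lower in all 3 pairs, which held for 12.9% of all genes, and the exceptions were Cd4, Cd8a and Ncr1. The members share their libraries, so these counts are not 10 independent observations.

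**Figure D4:**
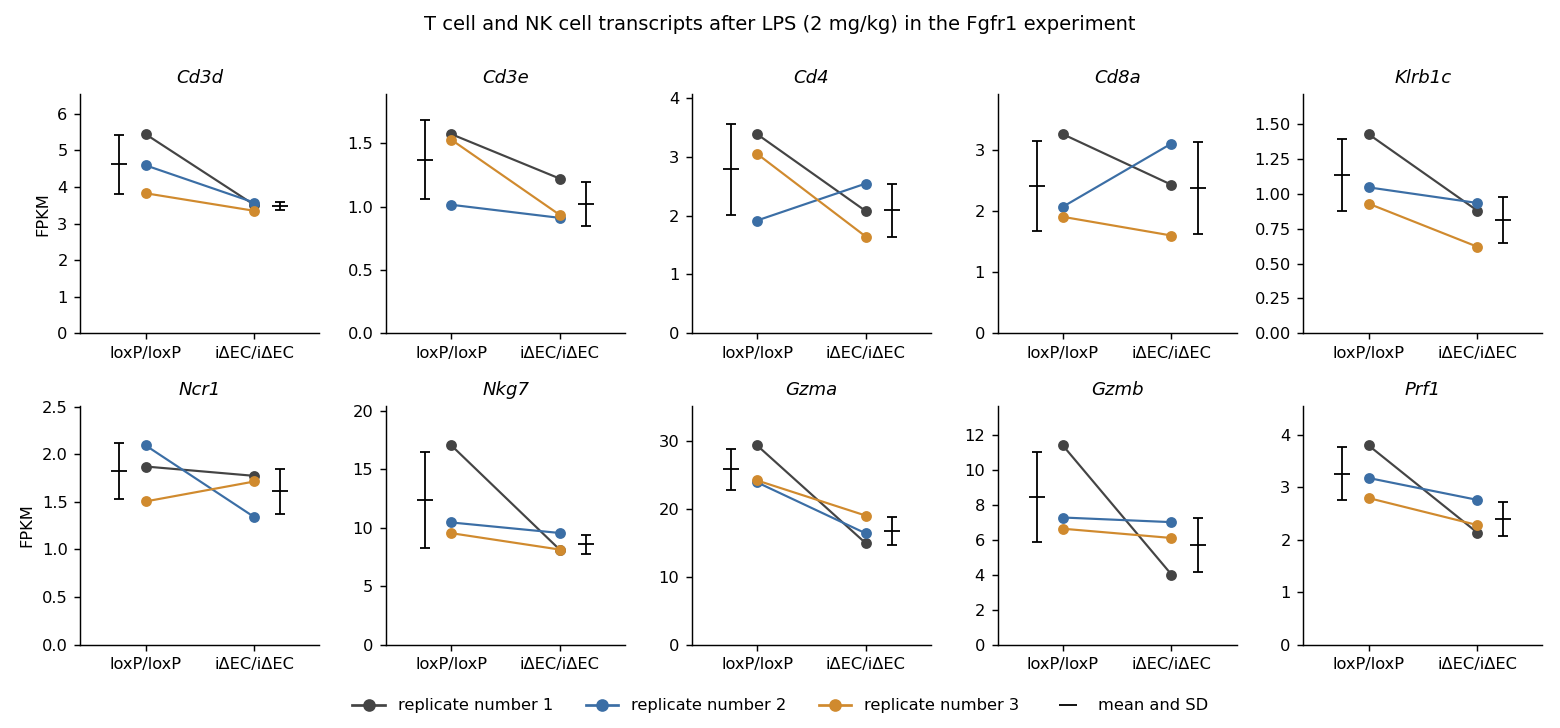
FPKM of the 10 members in the loxP/loxP and iΔEC/iΔEC libraries after 2 mg/kg LPS, 1 panel per gene with its own axis from 0. Lines join libraries with the same replicate number, and bars with whiskers are the mean and SD. Gzma lies at 24.0 to 29.4 in loxP/loxP and 15.0 to 19.0 in iΔEC/iΔEC libraries, while Cd4, Cd8a and Ncr1 each have a line that rises.

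Related genes were not called in this comparison, in any of the 16 other lists. The T cell receptor and signaling list had 17 of 18 genes tested, all 17 with a log2 fold change below 0 and a median of -0.33, beside 0.01 for all genes. Trac, the constant segment of the alpha chain, had 11.9, 8.07 and 7.61 FPKM in loxP/loxP and 4.74, 5.99 and 4.79 FPKM in iΔEC/iΔEC mice (log2 fold change -0.70, limma adjusted p = 0.962). The NK receptor list had a median of -0.12, with 14 of 15 tested genes below 0, and the cytotoxic list a median of -0.07, with 7 of 12 below 0. Il15 had 2.58, 3.39 and 2.93 FPKM and 2.23, 1.49 and 1.30 FPKM (-0.58, limma adjusted p = 0.962), without overlap.

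Markers of other cells were not called either. The median log2 fold change was 0.29 for the endothelial list, -0.25 for leukocyte genes, -0.48 for B cell genes, -0.45 for neutrophil genes, -0.08 for macrophage and monocyte genes and -0.69 for epithelial genes, with 0 genes called in each. Groups did not overlap for 2 of 10 endothelial and 1 of 8 epithelial genes, against 10.1% of all genes. Cdh5 had 434, 305 and 415 FPKM in loxP/loxP and 618, 439 and 580 FPKM in iΔEC/iΔEC mice. Sftpc, the surfactant gene of alveolar type 2 cells and the most abundant epithelial marker, had 779 ± 290 and 353 ± 194 FPKM. Ptprc had 14.0, 16.8 and 23.2 FPKM and 10.1, 21.8 and 13.8 FPKM, with overlap. The part of these other cells in the members' values was not tested.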

How the data were processed

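Bulk RNA-seq was analysed for 16 libraries in 2 tables. The authors aligned reads to GRCm38/mm10 with HISAT2 (2.0.5), counted them on genes with featureCounts (1.5.0-p3) and deposited FPKM, with gene lengths. Strandedness, annotation release and the FPKM computation are not given in the sources used here. FPKM times length gave whole read numbers for 100.0% of values (within 0.05 read). No column of per-sample values was left unused, and 11 gene symbols altered to dates in the second table were taken from the first.

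Libraries were rescaled by the median-of-ratios method. Genes averaging 0.5 FPKM or more were fitted as log2(FPKM + 1) within each table with limma 3.58.1 (R 4.3.3, lmFit and eBayes with trend), with Benjamini-Hochberg adjustment over all genes tested. The main fit was not a count test because the deposited unit is FPKM, and limma-voom on the recovered read numbers was run as an alternative. For single genes a two-sided exact permutation test was run over libraries. The fit was tested on simulated data. Other steps ran in Python 3.11.15 with numpy 2.4.6, scipy 1.17.1, pandas 2.3.3 and matplotlib 3.10.9.

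The members, marker lists and motifs were chosen with earlier results of these data known, and the motifs with the promoter sequences in view. Named genes are the members, up to 4 tested genes of each other list with the largest absolute log2 fold change, and the 5 genes most correlated with the mean of each member group. Trac, Unc13d, Gzmm, Ctsw, Il15, Klrd1, Klrc1, Klra8 and Klra9, the NK transcription factors, the genes below the testing limit and Fgfr1 were named beyond this rule after their values were seen, and some genes that the rule names are not reported here. In the second experiment deviations of same-numbered libraries from their group means correlated at 0.248, 0.178 and 0.187, each over 0.1, so the numbers were taken to pair the samples. The SE and p-values given for that experiment are nevertheless from the fit without pairs. Its exact permutation tests also ignored the pairs. The labels do not say that each library is a separate mouse, so p-values measure the spread between libraries. Reads carry no molecular identifiers, and 3 reads were taken as the floor.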

Additional observations from a re-analysis of the deposited data

Results flagged for a closer look

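Of 54 groups of 4 to 6 libraries examined, 6 held a library far from the others, where a rate of 1 in 20 would give 2.7. The groups share the same libraries and are not independent, so no excess is read from these counts. Values are log2(FPKM + 1), or its mean over a list. Cd4 stood at 1.09 in LPS 3 and at 0.398 to 0.634 in the other LPS libraries. Nkg7 stood at 3.59 in saline 1 against 2.08 to 2.25, and Gzmb at 3.13 against 0.982 to 1.19 in the other saline libraries. In saline 3 the mean of the T cell receptor and signaling list was 0.827 against 1.64 to 1.70, and that of the homing and residence list was 1.82 against 2.61 to 2.72. In LPS 3 the mean of the mast cell and basophil list was 1.57 against 1.26 to 1.38. What set these libraries apart was not tested.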

How the results depend on the processing

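No member tested was called under any alternative run, in either comparison. The runs included limma-voom on read numbers, other scalings and each library left out in turn. Leaving out saline 1 and saline 3 together was added after the values were seen. In LPS against saline, Cd3e and Cd8a were tested only in the run without a limit on low values, where neither could fall by the fold limit. The counts of all genes called in LPS (1768 higher, 1011 lower) became 4399 and 3529 with no limit on the fold, 1840 lower with a pseudocount of 0.1, 2008 lower with limma-voom, and 4374 and 204 on the endothelial scale. That scale moved the median of all genes from 0.01 to 0.57, and total reads moved it to -0.15. In iΔEC/iΔEC against loxP/loxP mice the endothelial scale moved it to -0.19.

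The log2 fold change in LPS turned to 0.0328 for Cd3d and 0.00893 for Gzma with a pseudocount of 0.1, to -0.0387 for Gzmb on total reads, and to 0.17 for Cd3d and 0.0838 for Gzma with limma-voom. On the endothelial scale it was 0.24 for Cd3d, 0.65 for Gzma, 0.32 for Prf1, 0.12 for Klrb1c and 0.0694 for Ncr1. Without saline 1 and saline 3 Gzma stood at 0.54, and Cd4 at -0.79 (limma adjusted p = 0.00654). Leaving out single libraries gave -0.55 to 0.0690 for Cd3d, -0.35 to 0.53 for Gzma, -0.13 to 0.59 for Gzmb, -0.81 to -0.30 for Nkg7, -0.64 to -0.20 for Cd4, -0.32 to -0.16 for Ncr1, -0.25 to 0.0198 for Klrb1c and -0.16 to 0.00025 for Prf1 in LPS, and -0.17 to 0.16 for Cd8a in iΔEC/iΔEC mice. The cause was not tested.

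With the replicate number as a block, Cd3d stood at 0.0374 and Gzma at 0.21 in LPS, and 1925 genes were called higher and 1063 lower. The same-numbered libraries of that experiment correlated at 0.097, -0.162, -0.209 and -0.117 in their deviations, so the numbers do not pair them. In the second experiment the block changed no call, with 0 genes called. Depth limits the members with the fewest reads, 2 for Cd8a and 3 for Cd3d, where no difference below the floor was detectable.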
